A study of Mus musculus with 12 samples.

Results

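Semaphorins are guidance ligands, plexins are their signalling receptors, and neuropilins are co-receptors that bind secreted semaphorins. The genes described here were chosen by symbol, as rows of the deposited gene table named as class 3 to 7 semaphorins, class A to D plexins or neuropilins. They numbered 31 of the 24453 genes in the table: 20 semaphorins, 9 plexins and 2 neuropilins. RNA-Seq of total RNA was compared in 4 mouse embryonic fibroblast (MEF) lines, each with 3 replicate cultures and so 12 libraries in all, to ask how loss of PNPase, the mitochondrial RNA-processing enzyme encoded by *Pnpt1*, and loss of mitochondrial DNA (mtDNA) alter expression. TM6 is the untreated parent, a C57BL6/J MEF line of genotype *Pnpt1* neo-flox/neo-flox immortalized with SV-40 large T antigen. The rho0 line was made from TM6 with ditercalinium dichloride dihydrochloride, a DNA-binding drug that depletes mtDNA, at 750 ng/mL over 3 weeks, and was then grown out of a single cell colony. The clones PKO-1 and PKO-6 came from TM6 cells that received Adenoviral-Cre, which excises *Pnpt1* exon 2, and each is 1 clone. All lines derive from the floxed TM6 parent, carry the T antigen and were kept in uridine at 50 µg/mL. With 1 rho0 colony and 2 knockout clones, a difference between lines cannot be told apart from a difference between clones, since replicates are cultures of the same line. RNA was purified with TriZol or RNeasy reagents, which library had which was not stated, and libraries were strand-specific, depleted of ribosomal RNA and read from both ends.

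The libraries held 47164860 to 67991378 estimated counts, with a median of 55405646, and the ribosomal precursor *Rn45s* took 12.2% to 19.6% of each. Counts were scaled to a common library size (normalized counts) to compare a gene between lines, and TPM, the deposited values scaled for length and depth, were used to compare genes with each other per length. *Pnpt1* had 2832, 3242 and 3319.5 normalized counts in the TM6 libraries, 5051, 5251 and 5509.5 with rho0, 1254, 1191 and 1276 with PKO-1 and 1897, 1720.4 and 2214 with PKO-6. All 6 knockout libraries lay below the lowest TM6 library, and all 3 rho0 libraries lay above the highest. Against TM6, *Pnpt1* rose by 0.75 ± 0.08 (adjusted *P* = 2.09e-06) in rho0, fell by 1.34 ± 0.09 (adjusted *P* = 1.25e-08) in PKO-1 and fell by 0.69 ± 0.08 (adjusted *P* = 5.53e-06) in PKO-6 (log2 scale, estimate ± SE). The rho0 call was lost in the fit with the clones pooled (adjusted *P* = 0.0116). Its log2 fold change stayed at 0.66 to 0.79 over all settings run. These counts cover the whole gene, so they check the knockout labels in part and do not show the loss of exon 2.

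The fibroblast label was checked with 12 marker genes, given as mean normalized counts in the order TM6, rho0 and the clones PKO-1 and then PKO-6. The collagen *Col1a1* averaged 182206, 61619, 98095 and 38368, *Col1a2* 113811, 80986, 108694 and 46989.5, *Col5a1* 31398, 13228, 13186 and 5625 and *Col3a1* 4765, 476, 7011 and 329. *Fn1* averaged 113270, 237872, 259106 and 208419 and *Vim* 125328, 84322, 119229 and 70033, so both were abundant in all lines. The growth factor receptor *Pdgfrb* averaged 6986, 2529.9, 3001 and 1542, *Pdgfra* 342, 81.6, 3225 and 415 and the proteoglycan *Dcn* 25.3, 8.198, 183 and 147. *Thy1* was at 5 counts or fewer in every library, *Lum* was at 0 in the 3 rho0 libraries and averaged 116 in PKO-1, and *Postn* averaged 756, 1.81, 1.11 and 1.56. Markers of other cell types were mixed. The immune genes *Ptprc*, *Adgre1*, *Cd3e* and *Itgam* were at 3 counts or fewer in all libraries, while *Cd68* averaged 91.6, 124, 95.6 and 186. The endothelial genes *Emcn* and *Cldn5* were also at 3 counts or fewer, while *Vwf* averaged 4.64, 11.5, 112 and 163, *Tek* 10.5, 9.30, 6.85 and 14.9, *Pecam1* 0.939, 1.71, 7.94 and 2.58 and *Cdh5* 0.939, 0.742, 5.19 and 6.66. The epithelial keratins *Krt5* and *Krt14* were at 1 count or fewer, but *Krt18* averaged 242, 430.1, 816 and 8.001 and *Epcam* 4.35, 8.15, 1.46 and 88.02. The neuronal markers *Rbfox3* and *Snap25* were at 1 count or fewer, while *Map2* averaged 3013, 2108, 4718 and 2199, *Tubb3* 163, 426, 518 and 172 and *Elavl4* 34.4, 307, 116 and 232. Of the glial markers, *Olig2* was at 0 and *Mbp* averaged 695, 731, 819 and 1229. The part of such cells in the results below was not tested. In these bulk samples, fewer cells with a transcript and less of it per cell cannot be told apart.

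Class 3 semaphorins are secreted, and most of them act through a neuropilin that holds the ligand and a class A plexin that carries the signal across the membrane. Semaphorins of classes 4 to 7 are tethered to the membrane and bind plexins directly. Activated plexins switch off small Ras-family GTPases and act on the cytoskeleton, which is how these ligands repel axons, steer vessels and alter the adhesion of migrating cells such as fibroblasts.

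Of the 31 genes, 27 passed the filter on low counts and were tested by edgeR together with all other genes, 14026 in total. A gene was called when its adjusted *P* was below 0.01 and its absolute log2 fold change was above 0.5, the thresholds of the study. In rho0 against TM6, 19 of the 27 tested genes of the family were called, against 42.1% of all tested genes: 6 were higher (20.7% of all genes) and 13 lower (21.4%). The median log2 fold change of the 27 was -0.61, beside 0.02 over all tested genes. In PKO-1 against TM6, 19 were called (34.3% of all genes), with 9 higher (16.4%) and 10 lower (17.9%) and a median of -0.02 beside 0.00. In PKO-6 against TM6, 21 were called (41.3% of all genes), 11 higher (21.9%) and 10 lower (19.4%), with a median of 0.23 beside 0.01. These comparisons share the TM6 libraries. Between the clones, PKO-1 against PKO-6, 14 were called (29.1% of all genes), 6 of them higher in PKO-1 (11.5%) and 8 lower (17.6%), and the median was -0.17 beside -0.01. The family's tested genes had a lower median level than all tested genes (419.8 normalized counts against 1165). A tested gene passed the filter on its counts, so these shares describe the 27 and not all 31. The counts include *Sema6d*, which passed through the knockout libraries, as called higher in PKO-1 and PKO-6.

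**Figure D1:**
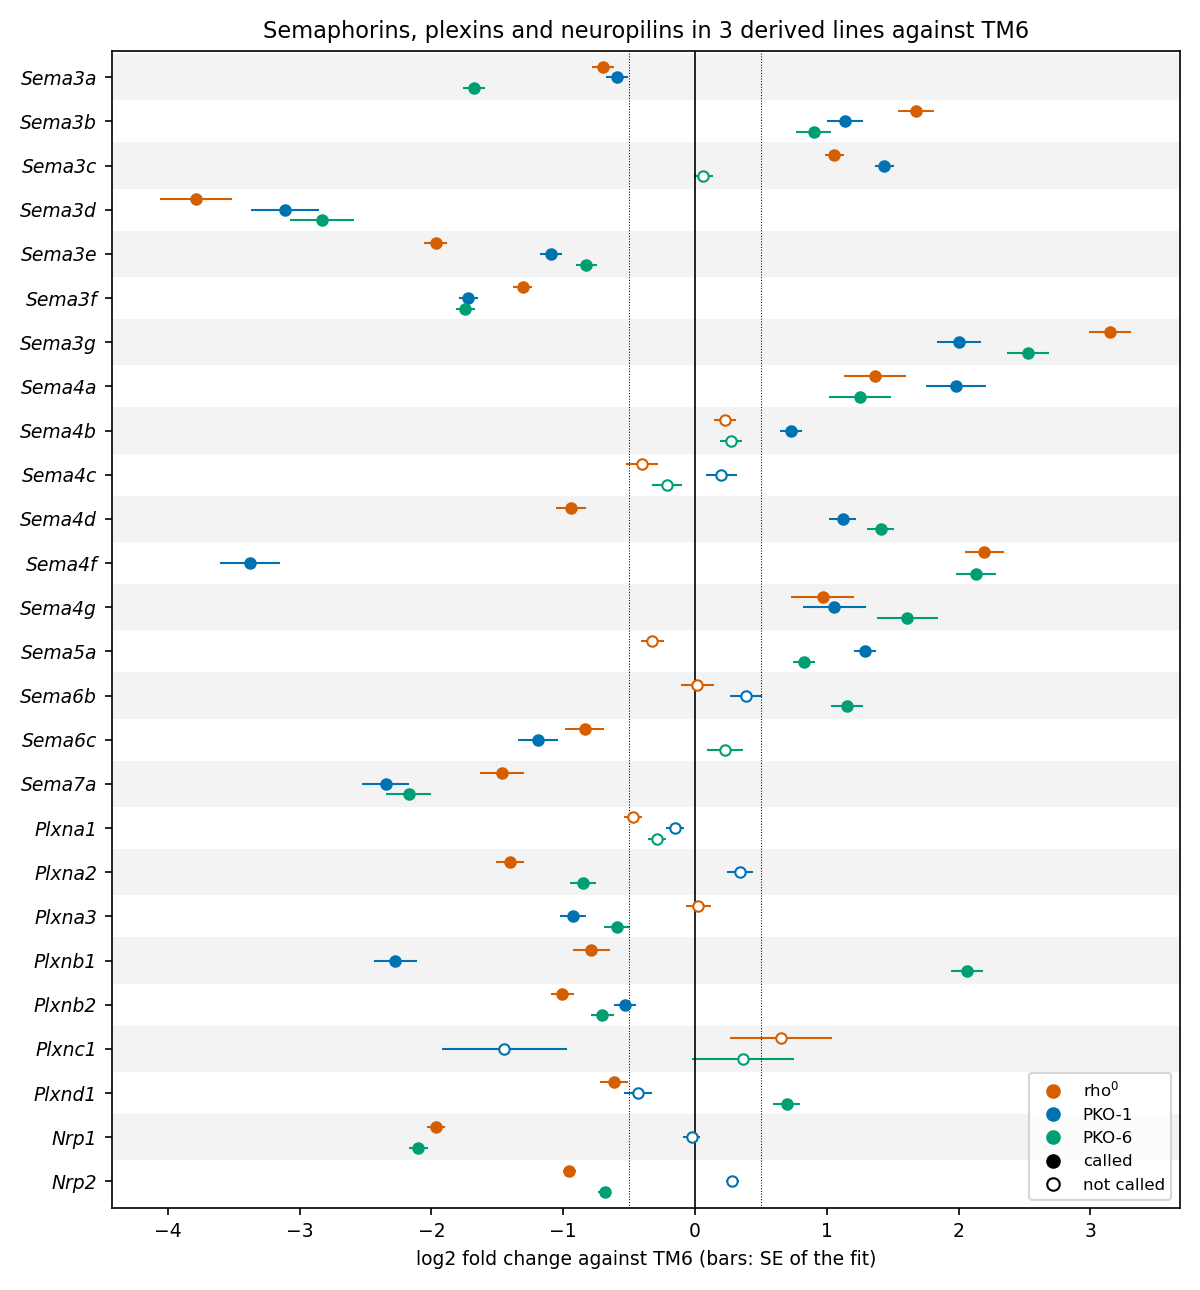
Log2 fold change against TM6 on the horizontal axis for 26 of the 27 tested genes, *Sema6d* left out for its low counts, in rho0 (orange), PKO-1 (blue) and PKO-6 (green), n = 3 libraries per line. Points are the edgeR estimates, bars are their SE, filled points were called, and dotted lines mark a log2 fold change of 0.5 in either direction; *Nrp1* sits at -1.97 in rho0 and -2.10 in PKO-6 but at -0.02 in PKO-1.

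Per length, the ligand pool was mostly secreted. Summed over the 20 semaphorins, TM6 held 162 ± 6.23 TPM (mean ± SD, n = 3), rho0 121 ± 6.39, PKO-1 129.9 ± 4.08 and PKO-6 91.1 ± 5.26. The 7 class 3 genes made up 85.7% ± 1.16 of this sum in TM6, 79.02% ± 0.671 with rho0, 75.6% ± 0.575 with PKO-1 and 63.7% ± 2.73 with PKO-6. The class 3 share was thus lower in each derived line, with no overlap between any of the 4 lines, and this share was described without a test. Membrane-bound semaphorins summed to 23.04 ± 1.04 TPM in TM6, 25.3 ± 0.585 with rho0, 31.7 ± 0.997 with PKO-1 and 32.96 ± 0.908 with PKO-6, so the fall of the sum lay in the secreted ligands.

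The leading ligand by TPM was *Sema3a* in all lines, at 64.9 ± 7.34 TPM in TM6, 39.2 ± 3.67 with rho0, 41.00 ± 1.19 with PKO-1 and 19.6 ± 3.21 with PKO-6. The next in TM6 was *Sema3f* at 44.00 ± 2.71 TPM, followed by *Sema3e* at 13.6 ± 1.14 and *Sema3c* at 12.9 ± 1.38, which did not differ beyond their spread. In each derived line *Sema3c* stood next to *Sema3a* in mean TPM, at 26.4 ± 1.87 TPM with rho0, 33.2 ± 1.63 with PKO-1 and 12.97 ± 1.38 with PKO-6. In PKO-6 it overlapped *Sema3f* (12.6 ± 0.276 TPM) and the membrane-bound *Sema4b* (11.6 ± 0.938 TPM). Among receptors, *Plxnb2* held 63.7% ± 0.621 of plexin TPM in TM6, 54.05% ± 2.03 with rho0, 58.7% ± 1.353 with PKO-1 and 55.8% ± 0.312 with PKO-6, with *Plxna1* next in every line. Plexin TPM summed to 216 ± 8.52 in TM6, 124 ± 1.56 with rho0, 155 ± 3.81 with PKO-1 and 145 ± 6.92 with PKO-6. The TM6 sum was the highest, and PKO-1 and PKO-6 overlapped. The neuropilin sum was 99.97 ± 0.978 TPM in TM6 and 109.6 ± 5.02 in PKO-1, but 42.4 ± 1.69 in rho0 and 47.96 ± 2.33 in PKO-6.

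**Figure D2:**
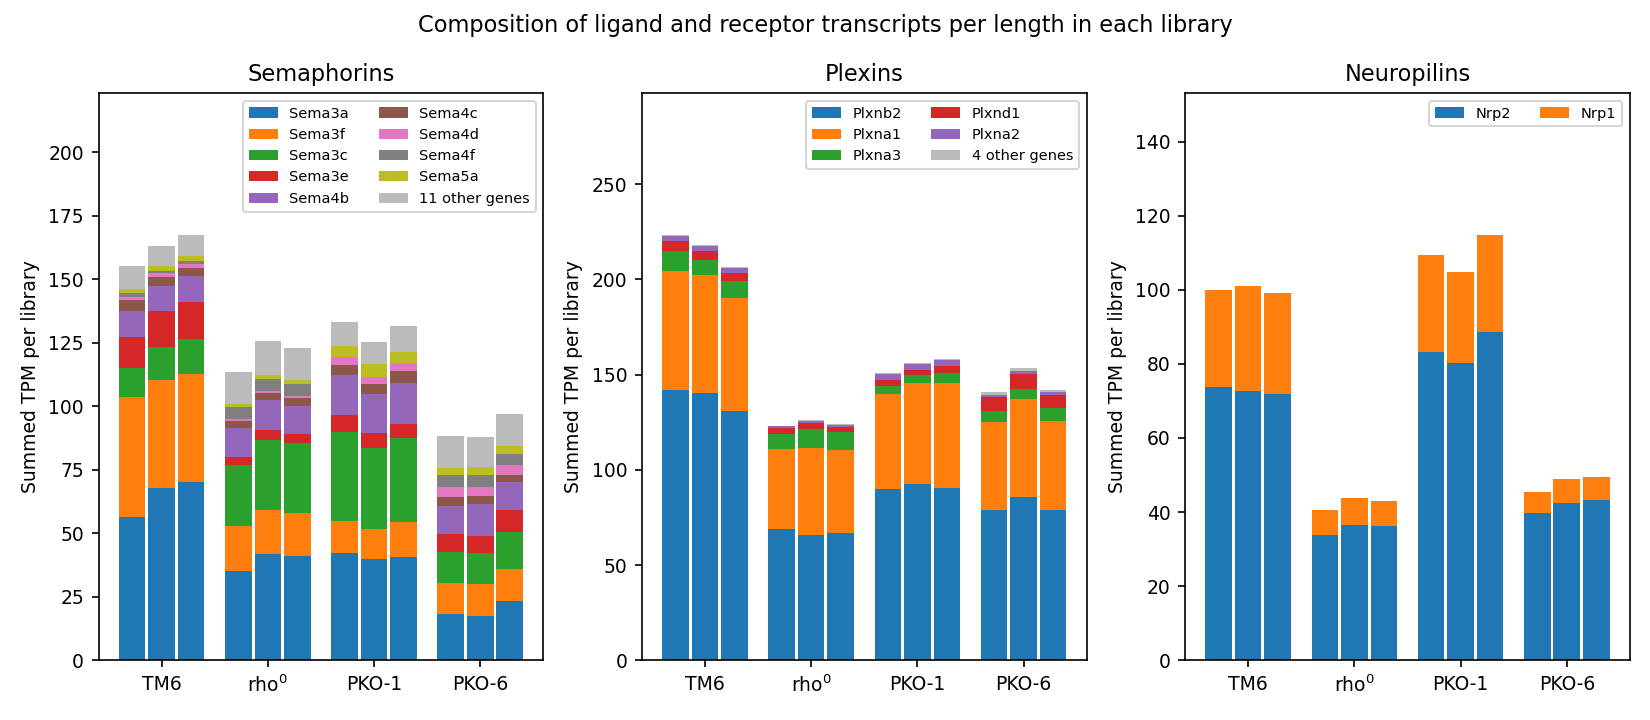
TPM in each of the 12 libraries, stacked by gene on a linear axis from 0, for semaphorins, plexins and neuropilins; each bar is 1 library, and grey is the sum of the genes not named. *Sema3a* and *Sema3f* make up most of the TM6 ligand bars, and the neuropilin bars of rho0 and PKO-6 are under those of TM6 and PKO-1.

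Among the secreted ligands, set against the shared TM6 libraries, *Sema3a*, *Sema3d*, *Sema3e* and *Sema3f* fell in each derived line, whereas *Sema3b* and *Sema3g* rose. *Sema3a*, the growth cone collapsing ligand of *Nrp1*, had 11980.3, 14496 and 14868 normalized counts in the TM6 libraries, 8233, 8595 and 8647 with rho0, 9501, 9193 and 8747 with PKO-1 and 4138, 4011 and 4762 with PKO-6. All derived libraries lay below the lowest TM6 library, and the PKO-6 libraries were the lowest. Against TM6, *Sema3a* fell by 0.70 ± 0.08 (adjusted *P* = 3.96e-06) in rho0, fell by 0.59 ± 0.08 (adjusted *P* = 2.39e-05) in PKO-1 and fell by 1.68 ± 0.08 (adjusted *P* = 5.81e-10) in PKO-6 (log2 scale, estimate ± SE). Between the clones it differed by 1.09 ± 0.08 (adjusted *P* = 8.54e-08). *Sema3f*, which binds *Nrp2*, had 4928, 4509 and 4436 normalized counts in the TM6 libraries, 2054, 1782 and 1769 with rho0, 1389, 1363 and 1457 with PKO-1 and 1381, 1482 and 1279 with PKO-6. All derived libraries were below TM6, and the clones overlapped each other below rho0. It fell by 1.31 ± 0.07 (adjusted *P* = 1.70e-09) in rho0, fell by 1.72 ± 0.07 (adjusted *P* = 1.61e-10) in PKO-1 and fell by 1.74 ± 0.07 (adjusted *P* = 8.24e-11) in PKO-6.

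*Sema3e*, which can bind *Plxnd1* without a neuropilin, had 2692, 3134 and 3167 normalized counts in the TM6 libraries, 725, 789 and 784 with rho0, 1539, 1411 and 1266 with PKO-1 and 1653, 1593 and 1829 with PKO-6. None of the 4 lines overlapped, with TM6 the highest and rho0 the lowest. On the log2 scale it fell by 1.97 ± 0.09 (adjusted *P* = 1.95e-10) in rho0, fell by 1.09 ± 0.08 (adjusted *P* = 6.56e-08) in PKO-1 and fell by 0.83 ± 0.08 (adjusted *P* = 6.98e-07) in PKO-6. *Sema3d* had 265, 288 and 316 normalized counts in the TM6 libraries, 17.4, 31.03 and 14.5 with rho0, 27.4, 43.7 and 28.96 with PKO-1 and 40.1, 26.9 and 54.3 with PKO-6. It was the class 3 gene with the largest falls, and the derived lines overlapped each other. *Sema3d* fell by 3.78 ± 0.27 (adjusted *P* = 2.87e-08) in rho0, fell by 3.11 ± 0.26 (adjusted *P* = 1.53e-07) in PKO-1 and fell by 2.83 ± 0.25 (adjusted *P* = 1.76e-07) in PKO-6.

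*Sema3a*, *Sema3d* and *Sema3e* are neighbours on chromosome 5 (mm10), at chr5:13396784-13603485, chr5:12383166-12588943 and chr5:14025276-14256689. The gap between *Sema3d* and *Sema3a* was 808 kb and that between *Sema3a* and *Sema3e* 422 kb. *Sema3c*, a ligand with a known role in the cardiac outflow tract, lies farther along the chromosome at chr5:17574816-17730267 and had 1774, 2124 and 2191 normalized counts in the TM6 libraries, 4217, 4201 and 4243 with rho0, 5825, 5433 and 5208 with PKO-1 and 2042, 2090.4 and 2217 with PKO-6. The rho0 and PKO-1 libraries were all above TM6, while PKO-6 overlapped TM6. *Sema3c* rose by 1.06 ± 0.07 (adjusted *P* = 1.66e-08) in rho0, rose by 1.44 ± 0.07 (adjusted *P* = 1.05e-09) in PKO-1 and was not called in PKO-6 (0.06 ± 0.07, adjusted *P* = 0.47), and the clones differed by 1.37 ± 0.07 (adjusted *P* = 1.89e-09). The median log2 fold change over all tested genes of chromosome 5 was -0.21 with rho0, 0.09 with PKO-1 and 0.06 with PKO-6. With chromosome medians removed, *Sema3a* in rho0 was at -0.48 and no longer past the fold threshold.

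*Sema3b* had 225, 147 and 202 normalized counts in the TM6 libraries, 657, 592 and 593 with rho0, 417, 398 and 451 with PKO-1 and 400.4, 333 and 338 with PKO-6. No derived library overlapped TM6, rho0 was highest, and the clones overlapped (PKO-1 against PKO-6: 0.24 ± 0.13, adjusted *P* = 0.13; called at 0.64 with chromosome medians removed). *Sema3b* rose by 1.68 ± 0.13 (adjusted *P* = 8.50e-08) in rho0, rose by 1.14 ± 0.14 (adjusted *P* = 5.71e-06) in PKO-1 and rose by 0.90 ± 0.14 (adjusted *P* = 4.09e-05) in PKO-6. Its neighbour on chromosome 9, *Sema3f*, lies 72.3 kb away on the same strand (chr9:107597674-107609241 and chr9:107681502-107710475), and fell where *Sema3b* rose. *Sema3g*, another *Nrp2* ligand, had 51.9, 61.1 and 35.9 normalized counts in the TM6 libraries, 488, 463 and 375 with rho0, 196, 214 and 189 with PKO-1 and 303, 275 and 284 with PKO-6. The 4 lines did not overlap, and TM6 was the lowest. *Sema3g* rose by 3.15 ± 0.16 (adjusted *P* = 8.79e-10) in rho0, rose by 2.00 ± 0.17 (adjusted *P* = 1.49e-07) in PKO-1 and rose by 2.53 ± 0.16 (adjusted *P* = 7.14e-09) in PKO-6. The clones differed by -0.52 ± 0.14 (adjusted *P* = 0.00578), a call that was lost when any of their 6 libraries was left out (adjusted *P* = 0.0101 to 0.0267).

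Of the 13 membrane-bound semaphorins, 11 were tested. Among these, 3 rose and 3 fell in rho0, 6 rose and 3 fell in PKO-1, and 7 rose and 1 fell in PKO-6, each against TM6. Over all tested genes, 20.7% were higher and 21.4% lower with rho0, 16.4% and 17.9% with PKO-1, and 21.9% and 19.4% with PKO-6. The widest split was at *Sema4f*, a class 4 gene expressed in the nervous system, which had 157, 121 and 133 normalized counts in the TM6 libraries, 663, 612 and 615 with rho0, 10.7, 7.46 and 20.7 with PKO-1 and 644, 617 and 548 with PKO-6. The rho0 and PKO-6 libraries overlapped far above TM6, and the PKO-1 libraries lay far below it. *Sema4f* rose by 2.20 ± 0.15 (adjusted *P* = 1.56e-08) in rho0, fell by 3.38 ± 0.23 (adjusted *P* = 1.85e-08) in PKO-1 and rose by 2.13 ± 0.15 (adjusted *P* = 1.73e-08) in PKO-6. Between the clones the difference was -5.51 ± 0.21 (adjusted *P* = 7.04e-11), and *Sema4f* was not called with the clones pooled against TM6 (1.17, adjusted *P* = 0.447).

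*Sema4d*, a ligand of *Plxnb1* that is also known from immune cells, had 207, 219 and 200.4 normalized counts in the TM6 libraries, 123, 93.1 and 108 with rho0, 451, 428 and 481 with PKO-1 and 594, 554 and 514 with PKO-6. The 4 lines did not overlap: rho0 was lowest, TM6 next, and both knockout clones highest. It fell by 0.94 ± 0.11 (adjusted *P* = 4.58e-06) in rho0, rose by 1.12 ± 0.10 (adjusted *P* = 4.56e-07) in PKO-1 and rose by 1.41 ± 0.10 (adjusted *P* = 2.67e-08) in PKO-6. PKO-1 against PKO-6 was not called (-0.29 ± 0.10, adjusted *P* = 0.0209). With the clones pooled, *Sema4d* rose by 1.27 ± 0.14 (adjusted *P* = 1.86e-05) against TM6 and rose by 2.22 ± 0.15 (adjusted *P* = 2.38e-06) against rho0.

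*Sema5a*, which carries thrombospondin repeats, had 655, 674 and 677 normalized counts in the TM6 libraries, 517, 529.6 and 554 with rho0, 1620.2, 1811 and 1481 with PKO-1 and 1098, 1315 and 1142 with PKO-6. All 6 knockout libraries lay above TM6, and the rho0 libraries lay below it. *Sema5a* was not called in rho0 (-0.33 ± 0.09, adjusted *P* = 0.00397), rose by 1.29 ± 0.08 (adjusted *P* = 1.29e-08) in PKO-1 and rose by 0.83 ± 0.08 (adjusted *P* = 8.45e-07) in PKO-6. PKO-1 against PKO-6 was not called (0.47 ± 0.08, adjusted *P* = 2.17e-04), where the adjusted *P* passed and the fold threshold was missed; it was called without PKO-1 replicate 3 (0.54) or PKO-6 replicate 2 (0.55). With the clones pooled, *Sema5a* rose by 1.08 ± 0.15 (adjusted *P* = 1.21e-04) against TM6 and rose by 1.40 ± 0.15 (adjusted *P* = 7.03e-05) against rho0. The study named *Sema4d* and a class 5 semaphorin from these same samples, so their direction is not independent evidence. It listed them among genes differing from TM6 in the knockout only, whereas *Sema4d* was also called here in rho0, as lower. Without the chromosome 15 medians, *Sema5a* in rho0 was at 0.05, and PKO-1 against PKO-6 at 0.61 was called. *Sema4d*, on chromosome 13, was at 0.07 for PKO-1 against PKO-6 after the same step.

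*Sema4b* had 1243, 1219 and 1256 normalized counts in the TM6 libraries, 1572, 1415 and 1362 with rho0, 2096, 2076 and 1985 with PKO-1 and 1441, 1715 and 1336 with PKO-6. The TM6 libraries were the lowest, and PKO-1 was the highest. It was not called in rho0 (0.23 ± 0.08, adjusted *P* = 0.0235), rose by 0.73 ± 0.08 (adjusted *P* = 3.11e-06) in PKO-1 and was not called in PKO-6 (0.27 ± 0.08, adjusted *P* = 0.00875). *Sema4g*, a possible *Plxnb2* ligand, had 56.2, 36.3 and 44.9 normalized counts in the TM6 libraries, 59.1, 109.7 and 103 with rho0, 95.2, 89.5 and 102 with PKO-1 and 159.7, 115 and 146 with PKO-6. TM6 was below all derived libraries and PKO-6 above all others. *Sema4g* rose by 0.97 ± 0.24 (adjusted *P* = 0.00235) in rho0, rose by 1.06 ± 0.24 (adjusted *P* = 0.00142) in PKO-1 and rose by 1.61 ± 0.23 (adjusted *P* = 2.49e-05) in PKO-6. The rho0 call was lost without TM6 replicate 2, rho0 replicate 2 or rho0 replicate 3 (adjusted *P* = 0.0131 to 0.0164) and with only the compared lines fitted (adjusted *P* = 0.0132).

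Class 6 semaphorins, which bind class A plexins, moved by line. *Sema6b* had 185, 168 and 157 normalized counts in the TM6 libraries, 193, 156 and 166 with rho0, 240.5, 222 and 206 with PKO-1 and 355, 434 and 348 with PKO-6. TM6 and rho0 overlapped, PKO-1 was slightly above them and PKO-6 well above. It was not called in rho0 (0.02 ± 0.13, adjusted *P* = 0.913), was not called in PKO-1 (0.39 ± 0.12, adjusted *P* = 0.014) and rose by 1.15 ± 0.12 (adjusted *P* = 1.18e-06) in PKO-6, and the clones differed by -0.77 ± 0.12 (adjusted *P* = 8.07e-05). *Sema6c* had 194, 170.1 and 176 normalized counts in the TM6 libraries, 120.1, 78.7 and 103 with rho0, 84.5, 68.2 and 83.8 with PKO-1 and 213, 219.7 and 201 with PKO-6. Here rho0 and PKO-1 overlapped below TM6, and PKO-6 was above it by less than the threshold. *Sema6c* fell by 0.84 ± 0.15 (adjusted *P* = 1.64e-04) in rho0, fell by 1.19 ± 0.15 (adjusted *P* = 1.01e-05) in PKO-1 and was not called in PKO-6 (0.23 ± 0.14, adjusted *P* = 0.158), with a difference of -1.42 ± 0.15 (adjusted *P* = 2.06e-06) between the clones.

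*Sema7a*, a lipid-anchored ligand of *Plxnc1* and of integrins, had 128, 124 and 149.6 normalized counts in the TM6 libraries, 50.4, 47.6 and 46.9 with rho0, 26.2, 20.2 and 32.1 with PKO-1 and 29.5, 32.1 and 27.1 with PKO-6. TM6 was far above the rest, rho0 was next, and the clones overlapped. *Sema7a* fell by 1.47 ± 0.17 (adjusted *P* = 2.78e-06) in rho0, fell by 2.35 ± 0.18 (adjusted *P* = 7.27e-08) in PKO-1 and fell by 2.17 ± 0.17 (adjusted *P* = 7.26e-08) in PKO-6. *Sema4a*, *Sema4c* and *Sema6d* had a low level or no call. *Sema4a* ranged from 20.1 to 23.3 normalized counts in TM6 to 75.00 to 100.3 in PKO-1, with rho0 at 46.9 to 72.02 and PKO-6 at 43.6 to 63.9. It rose by 1.36 ± 0.24 (adjusted *P* = 1.46e-04) in rho0, rose by 1.98 ± 0.23 (adjusted *P* = 4.24e-06) in PKO-1 and rose by 1.25 ± 0.23 (adjusted *P* = 2.93e-04) in PKO-6. The clones differed at 0.73 ± 0.21 (adjusted *P* = 0.00748), but this call was lost in the DESeq2 Wald test (adjusted *P* = 0.0146), with only the clones fitted (0.0112) and with the replicate block (0.0146). It was also lost without replicate 2 or 3 of PKO-1, replicate 2 or 3 of PKO-6, or TM6 replicate 3 (adjusted *P* = 0.0114 to 0.0382).

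*Sema6d* was near the limit of detection outside the knockout clones. It had 0 to 4 estimated counts per TM6 library, 0 to 2.01 per rho0 library, 9 to 12.01 in PKO-1 and 58 to 62.1 in PKO-6. All knockout libraries were above all TM6 and rho0 libraries. It passed the filter on low counts through the knockout libraries, so its calls, between the clones as well as against TM6, are a description of these counts. The PKO-1 call was lost without replicate 1 or 2 of PKO-1 (adjusted *P* = 0.0128 to 0.0151). *Sema4c*, a *Plxnb2* ligand, was called in none of the 6 comparisons by edgeR and ranged from 314 to 361 normalized counts in rho0 to 493 to 545 in PKO-1. With chromosome medians removed it was called in rho0 against TM6, at -0.52. *Sema5b* and *Sema6a* were not tested, with at most 3 and 7 estimated counts in any library.

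Among the plexins, 4 of the 7 tested were lower in rho0 and 0 higher, 3 were lower and 0 higher in PKO-1, and 3 were lower and 2 higher in PKO-6. In these comparisons 42.1%, 34.3% and 41.3% of all tested genes were called, in either direction. *Plxna2*, a class A partner of neuropilins, had 951, 994 and 955 normalized counts in the TM6 libraries, 365, 393 and 337 with rho0, 1183, 1249 and 1240 with PKO-1 and 466, 640.5 and 505 with PKO-6. The rho0 and PKO-6 libraries were all below TM6, and the PKO-1 libraries all above it. *Plxna2* fell by 1.40 ± 0.10 (adjusted *P* = 3.75e-08) in rho0, was not called in PKO-1 (0.34 ± 0.10, adjusted *P* = 0.00778) and fell by 0.85 ± 0.10 (adjusted *P* = 4.18e-06) in PKO-6. The clones differed by 1.19 ± 0.10 (adjusted *P* = 2.45e-07).

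*Plxna1* was the main class A plexin at 61.3 ± 1.63 TPM in TM6, 43.6 ± 1.87 with rho0, 52.7 ± 2.61 with PKO-1 and 48.2 ± 2.75 with PKO-6. It was called in no comparison. In rho0 the log2 fold change was -0.47 ± 0.07, adjusted *P* = 3.79e-05, just inside the fold threshold, and with chromosome medians removed it was called at -0.62. *Plxna3*, on the X chromosome, had 2344, 1757 and 2007 normalized counts in the TM6 libraries, 1962, 2192 and 2069 with rho0, 1012, 1024 and 1184 with PKO-1 and 1418, 1249 and 1381 with PKO-6. TM6 and rho0 overlapped, and both clones were below them. *Plxna3* was not called in rho0 (0.03 ± 0.10, adjusted *P* = 0.817), fell by 0.92 ± 0.10 (adjusted *P* = 1.82e-06) in PKO-1 and fell by 0.59 ± 0.10 (adjusted *P* = 8.16e-05) in PKO-6. The median over the tested genes of the X chromosome was -0.75 with rho0, -0.74 with PKO-1 and -0.87 with PKO-6. With these medians removed, *Plxna3* was not called in PKO-1 (-0.18) or PKO-6 (0.28) and was higher in rho0 (0.78, adjusted *P* = 6.86e-06).

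*Plxnb2*, a receptor for class 4 semaphorins and the most abundant plexin, had 29362, 29576 and 27149 normalized counts in the TM6 libraries, 15899, 13226 and 13710.1 with rho0, 19774, 20883 and 18916 with PKO-1 and 17429, 19548 and 15897 with PKO-6. All derived libraries were below TM6, rho0 was lowest, and PKO-6 overlapped both rho0 and PKO-1. *Plxnb2* fell by 1.01 ± 0.09 (adjusted *P* = 1.45e-07) in rho0, fell by 0.53 ± 0.08 (adjusted *P* = 8.38e-05) in PKO-1 and fell by 0.70 ± 0.08 (adjusted *P* = 4.80e-06) in PKO-6. The PKO-1 value was under the fold threshold without PKO-1 replicate 3 (-0.495) and with chromosome medians removed (-0.30). *Plxnb1*, the receptor of *Sema4d*, had 83.00, 76.4 and 68.8 normalized counts in the TM6 libraries, 48.4, 43.2 and 40.2 with rho0, 15.5, 13.8 and 17.6 with PKO-1 and 326, 335 and 298 with PKO-6. None of the lines overlapped, and PKO-6 stood highest and PKO-1 lowest. *Plxnb1* fell by 0.79 ± 0.14 (adjusted *P* = 1.86e-04) in rho0, fell by 2.27 ± 0.17 (adjusted *P* = 4.25e-08) in PKO-1 and rose by 2.07 ± 0.12 (adjusted *P* = 3.23e-09) in PKO-6. The clones differed by -4.34 ± 0.15 (adjusted *P* = 3.52e-11), and the pooled clones were not called against TM6 (1.14 ± 1.01, adjusted *P* = 0.376). *Plxnb1* is on chromosome 9 (chr9:109095436-109119915), where the median in PKO-1 was -0.39; with it removed, *Plxnb1* in PKO-1 was at -1.89.

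*Plxnd1*, the receptor of *Sema3e*, had 1182, 1040.4 and 967 normalized counts in the TM6 libraries, 756, 686 and 643 with rho0, 809, 706 and 845 with PKO-1 and 1722, 1943 and 1508 with PKO-6. PKO-6 was above TM6, and rho0 and PKO-1 overlapped below it. It fell by 0.61 ± 0.11 (adjusted *P* = 1.55e-04) in rho0, was not called in PKO-1 (-0.44 ± 0.11, adjusted *P* = 0.0026) and rose by 0.70 ± 0.10 (adjusted *P* = 3.64e-05) in PKO-6, and the clones differed by -1.13 ± 0.11 (adjusted *P* = 6.29e-07). With chromosome medians removed, PKO-1 was also called, at -0.65. *Plxnc1* was low, from 7.14 to 11.4 normalized counts in PKO-1 to 19.4 to 58.7 in rho0, and was called in PKO-1 against PKO-6 alone (-1.81 ± 0.46, adjusted *P* = 0.00377). That call was lost without replicate 1 or 2 of PKO-1 or replicate 3 of PKO-6 (adjusted *P* = 0.0137 to 0.0189). *Plxna4* and *Plxnb3* were not tested, with at most 2 and 8 estimated counts in any library.

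Both neuropilins, co-receptors for class 3 semaphorins and for vascular endothelial growth factors, fell in rho0 and in PKO-6 and not in PKO-1. *Nrp1* had 4918, 5429 and 5131 normalized counts in the TM6 libraries, 1383, 1331 and 1246 with rho0, 5235, 5017 and 4962 with PKO-1 and 1138, 1337 and 1140.2 with PKO-6. PKO-1 overlapped TM6, and rho0 overlapped PKO-6 far below them. *Nrp1* fell by 1.97 ± 0.07 (adjusted *P* = 2.06e-11) in rho0, was not called in PKO-1 (-0.02 ± 0.06, adjusted *P* = 0.756) and fell by 2.10 ± 0.07 (adjusted *P* = 7.62e-12) in PKO-6. The difference between the clones was 2.07 ± 0.07 (adjusted *P* = 2.02e-11). Of the 12 fibroblast markers given above, *Col1a1*, *Col1a2*, *Col3a1*, *Vim*, *Pdgfrb* and *Lum* had lower means in rho0 and PKO-6 than in TM6 and PKO-1. Of these, *Col1a1*, *Col1a2*, *Vim* and *Pdgfrb* also had lower means in PKO-1 than in TM6, where the libraries of *Col1a2* overlapped. *Col3a1*, singled out after its values were seen, averaged 476 in rho0 and 329 in PKO-6, beside 4765 in TM6 and 7011 in PKO-1. *Fn1*, *Dcn* and *Pdgfra* did not follow this order of the lines, and *Postn* was low in PKO-1 too. *Col5a1* was alike in rho0 and PKO-1, and *Thy1* was too low to compare. The part of these markers in the *Nrp1* result was not tested. *Nrp1* lies on chromosome 8 (chr8:128359073-128505475), where the median over tested genes was -0.18 in rho0 and -0.43 in PKO-6; with the medians removed *Nrp1* was still called, at -1.79 and -1.67.

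*Nrp2* had 13612, 13889.8 and 13442 normalized counts in the TM6 libraries, 7299, 6841 and 7006 with rho0, 16625, 16469 and 16718 with PKO-1 and 8239, 9022 and 8187 with PKO-6. The 4 lines did not overlap, with PKO-1 highest and rho0 lowest. *Nrp2* fell by 0.95 ± 0.05 (adjusted *P* = 1.41e-09) in rho0, was not called in PKO-1 (0.28 ± 0.05, adjusted *P* = 2.28e-04) and fell by 0.69 ± 0.05 (adjusted *P* = 3.20e-08) in PKO-6, and the clones differed by 0.97 ± 0.05 (adjusted *P* = 1.86e-09). Per length *Nrp2* exceeded *Nrp1* in every line, and its share of neuropilin TPM was 72.8% ± 0.983 in TM6, 76.7% ± 0.602 in PKO-1, 83.8% ± 0.596 in rho0 and 87.3% ± 0.387 in PKO-6.

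The 6 annotated *Nrp2* transcripts share the start at position 62703317 of chromosome 1 and have 2 ends, so the estimated counts of the 2 transcripts that end at 62797091 were set against the 4 that end at 62818692. The near end took 33.6% ± 2.38 of *Nrp2* counts in TM6 and 32.1% ± 1.24 in PKO-1, against 23.3% ± 0.507 in rho0 and 23.7% ± 1.00 in PKO-6. The first pair of lines (31.2% to 36.1) did not overlap the second (22.8% to 24.8). In *Sema4a*, the transcript starting at 88459101 of chromosome 3 took 92.2% ± 13.5 of the counts in PKO-1 and 0% in the other lines, where the one starting at 88461182 took 100% in TM6 and rho0 and 75.1% ± 21.5 in PKO-6. These rest on 63 to 97 counts per PKO-1 library and 21 to 27 per TM6 library. Both transcript shares were singled out after their values were seen, and were not tested.

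**Figure D3:**
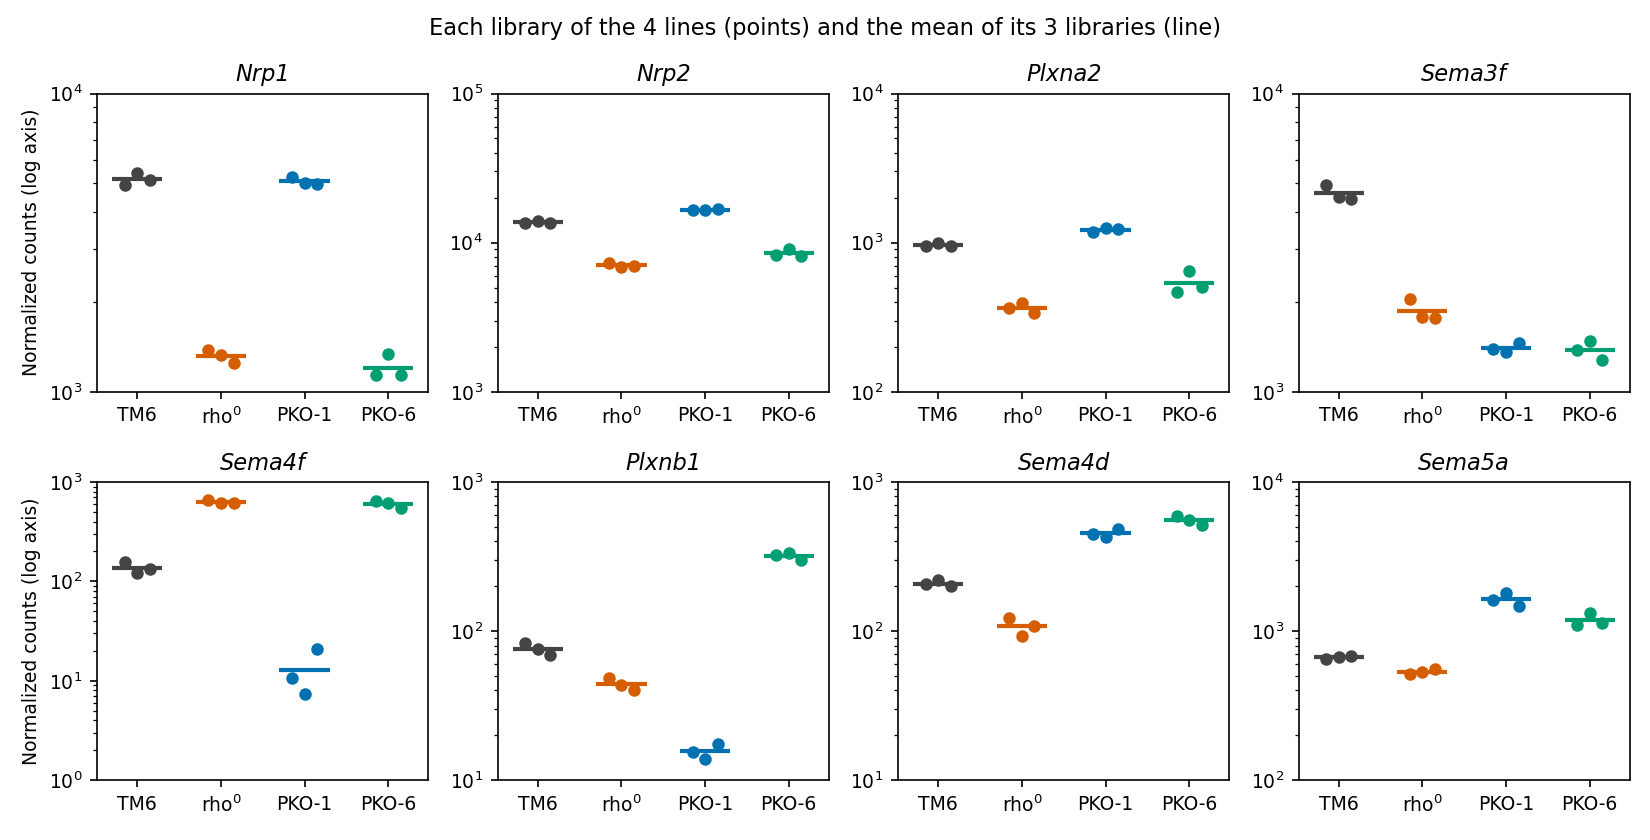
Normalized counts on a log axis in each library (points) with the mean of the 3 libraries (bars) for 8 genes in the 4 lines. *Nrp1*, *Nrp2* and *Plxna2* are low in rho0 and PKO-6; *Sema4f* and *Plxnb1* are lowest in PKO-1, at means of 12.95 and 15.6; *Sema4d* and *Sema5a* are highest in the 2 knockout clones.

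With the 6 libraries of both clones pooled, as a knockout group, the spread between the clones entered the test. Against TM6, 14 of the 27 tested genes were called (25.7% of all genes), 7 higher (13.5%) and 7 lower (12.2%), with a median log2 fold change of 0.01 beside 0.03 over all genes. Besides *Sema4d* and *Sema5a*, given above, the genes that rose were *Sema3b* by 1.02 ± 0.15 (1.87e-04), *Sema3g* by 2.29 ± 0.23 (1.14e-05), *Sema4a* by 1.65 ± 0.30 (8.68e-04) and *Sema4g* by 1.36 ± 0.28 (0.00179) on the log2 scale, with adjusted *P* from edgeR in brackets. *Sema6d* was also called higher, from the low counts given above. By contrast, *Sema3a* fell by 1.04 ± 0.28 (0.00902), *Sema3d* fell by 2.97 ± 0.27 (4.62e-06), *Sema3e* fell by 0.95 ± 0.10 (1.67e-05) and *Sema3f* fell by 1.73 ± 0.07 (8.58e-09). *Sema7a* fell by 2.26 ± 0.17 (adjusted *P* = 1.34e-06), *Plxna3* fell by 0.75 ± 0.12 (adjusted *P* = 3.60e-04) and *Plxnb2* fell by 0.61 ± 0.09 (adjusted *P* = 1.56e-04). With chromosome medians removed, *Plxna3* was at 0.06 and *Plxnb2* at -0.45, and neither was called. The call of *Sema3a* was lost with only the compared groups fitted (adjusted *P* = 0.0219), with the replicate block (0.0224) and when any TM6, rho0 or PKO-6 library was left out (adjusted *P* = 0.0108 to 0.037), that of *Sema6d* with only the compared groups fitted (0.0137), with the replicate block (0.0204) and without any TM6 or PKO-6 library or rho0 replicate 1 or 2 (0.0101 to 0.0279), and that of *Sema4g* without TM6 replicate 2 or 3 (0.0107 to 0.0132). Neither neuropilin was called in this comparison (*Nrp1*: -0.72 ± 0.50, adjusted *P* = 0.26; *Nrp2*: -0.12 ± 0.25, adjusted *P* = 0.713).

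The pooled knockout group was also compared with rho0. The study describes the knockout clones as lacking mtDNA too, so this comparison does not set PNPase loss against mtDNA loss. Here 8 of the 27 were called (10.7% of all genes), 4 higher (6.33%) and 4 lower (4.36%), and the median was 0.39 beside 0.02. The genes that rose were *Sema4d* and *Sema5a*, given above, and *Sema3e* (1.02 ± 0.11, adjusted *P* = 6.80e-05). *Sema6d* was called higher too, and had 9.31 to 64.3 normalized counts in the knockout libraries and at most 2.22 in rho0. The genes that fell were *Sema3b* (-0.66 ± 0.14, adjusted *P* = 0.0049), *Sema3g* (-0.86 ± 0.20, adjusted *P* = 0.00722), *Sema7a* (-0.79 ± 0.18, adjusted *P* = 0.00666) and *Plxna3* (-0.78 ± 0.12, adjusted *P* = 7.79e-04). Removing chromosome medians ended the calls of *Sema3b* (-0.40), *Sema3g* (-0.79) and *Sema7a* (-0.56). Leaving out any rho0 library also ended the calls of these genes and of *Sema6d*. The *Sema3b* call was further lost without PKO-1 replicate 2, that of *Sema3g* without TM6 replicate 1 or any PKO-1 library, that of *Sema7a* without any TM6 library, PKO-1 replicate 1 or 2 or PKO-6 replicate 3, and that of *Sema6d* without TM6 replicate 1 or 3 or PKO-6 replicate 1 or 2. With the replicate block, adjusted *P* was 0.0147 for *Sema3g*, 0.0181 for *Sema7a* and 0.019 for *Sema6d*, and none was called. With only the compared groups fitted, *Sema7a* (0.0237) and *Sema6d* (0.0101) were not called, and without the filter on low counts *Sema3g* (0.0108) and *Sema7a* (0.0132) were not. Over the fits that left out a library and lost the call, the adjusted *P* was 0.01003 to 0.0195 for *Sema3b*, 0.0107 to 0.0339 for *Sema3g*, 0.0105 to 0.0248 for *Sema7a* and 0.0101 to 0.0344 for *Sema6d*.

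When rho0 against TM6 was instead read from the fit with the clones pooled, 10 genes of the family were called, beside 19 with the clones apart. Over all genes, calls in that fit numbered 4111 of 14026, beside 5902 with the clones apart. The calls of *Sema3a*, *Sema3c*, *Sema4f*, *Sema4g*, *Sema6c*, *Plxnb1*, *Plxnd1*, *Nrp1* and *Nrp2* were lost there, with adjusted *P* of 0.0978, 0.0499, 0.195, 0.0196, 0.138, 0.584, 0.164, 0.0194 and 0.0175 in that order. In the same order, the log2 fold changes in that fit were -0.70, 1.06, 2.20, 0.98, -0.84, -0.79, -0.61, -1.97 and -0.95, close to those given above.

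Promoters were compared for genes alike in some of the lines: *Nrp1*, *Nrp2* and *Plxna2*, low in rho0 and PKO-6, and *Sema4f* and *Plxnb1*, far lower in PKO-1 than PKO-6. In rho0 against TM6, *Sema4f* rose and *Plxnb1* fell. RefSeq promoters (GRCm38.p6) matched 26 of the 31 symbols. The 250 bases before the start were searched for GGGCGG on both strands, the core of the GC box, which 32.7% of all 32851 promoters held. The windows were chr8:128358823-128359072 (+ strand) for *Nrp1*; chr1:62703067-62703316 (+ strand) for *Nrp2*; chr1:194619579-194619828 (+ strand) for *Plxna2*, and then chr6:82939770-82940019 (- strand) for *Sema4f* and chr9:109095186-109095435 (+ strand) for *Plxnb1*. Matches numbered 1 in *Nrp1*, 5 in *Nrp2*, 2 in *Plxna2*, 4 in *Plxnb1* and 0 in *Sema4f*. Of the 26 genes of the family with a promoter, 18 had 1 window and the others more. A match in any window was held by 21 of the 26, so a match does not set these genes apart. That share is per gene, and the 32.7% is per promoter. CG dinucleotides, some of them inside those matches, numbered 11, 32 and 18 in the receptor windows, 30 in *Plxnb1* and 4 in *Sema4f*, beside a median of 6 over all promoters. *Sema4f* and *Plxnb1*, which split alike between the clones, thus differed in both features. A match is a description of the letters and not a binding site. Each window is given 5′ to 3′ with matches in capitals.
Nrp1: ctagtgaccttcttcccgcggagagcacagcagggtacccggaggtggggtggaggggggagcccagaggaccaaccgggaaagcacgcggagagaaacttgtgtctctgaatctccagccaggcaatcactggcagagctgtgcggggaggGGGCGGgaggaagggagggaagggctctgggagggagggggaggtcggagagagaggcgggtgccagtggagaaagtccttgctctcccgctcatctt
Nrp2: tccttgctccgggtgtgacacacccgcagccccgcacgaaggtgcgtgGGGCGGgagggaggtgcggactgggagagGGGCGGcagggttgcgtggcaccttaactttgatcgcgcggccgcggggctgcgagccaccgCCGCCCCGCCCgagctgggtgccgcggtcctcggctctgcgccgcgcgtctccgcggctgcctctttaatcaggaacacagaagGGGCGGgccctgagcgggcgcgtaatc
Plxna2: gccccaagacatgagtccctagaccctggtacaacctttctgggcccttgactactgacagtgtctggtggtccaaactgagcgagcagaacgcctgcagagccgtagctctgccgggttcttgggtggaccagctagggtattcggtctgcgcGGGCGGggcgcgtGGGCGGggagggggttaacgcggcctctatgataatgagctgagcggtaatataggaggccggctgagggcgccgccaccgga
Sema4f: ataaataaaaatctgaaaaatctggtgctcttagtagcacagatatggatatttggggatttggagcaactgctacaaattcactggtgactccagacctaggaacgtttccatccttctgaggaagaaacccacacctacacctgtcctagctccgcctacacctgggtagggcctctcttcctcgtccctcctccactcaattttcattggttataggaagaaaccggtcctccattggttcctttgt
Plxnb1: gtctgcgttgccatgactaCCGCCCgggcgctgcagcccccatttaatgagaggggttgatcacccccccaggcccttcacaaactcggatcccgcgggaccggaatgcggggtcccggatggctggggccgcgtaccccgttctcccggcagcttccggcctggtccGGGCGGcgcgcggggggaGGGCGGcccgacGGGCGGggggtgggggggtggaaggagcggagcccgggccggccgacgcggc

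Genes that act with the family were counted from lists chosen by function, each against TM6. Over all lists, 33 of 58 tested genes (56.9%) were called with rho0, 24 (41.4%) with PKO-1 and 34 (58.6%) with PKO-6, beside 42.1%, 34.3% and 41.3% of all tested genes. The medians were -0.30, -0.20 and -0.21, beside 0.02, 0.00 and 0.01 over all tested genes. Of 28 genes of GTPase signalling below plexins, 13 were called in rho0 (3 higher, 10 lower; 46.4% beside 42.1% of all tested genes), 8 were called in PKO-1 (2 higher, 6 lower; 28.6% beside 34.3% of all tested genes) and 10 were called in PKO-6 (3 higher, 7 lower; 35.7% beside 41.3% of all tested genes). These shares lie near or below those of all tested genes, with medians of -0.35, -0.24 and -0.25. *Tiam1*, an activator of Rac, fell by 1.56 ± 0.09 in rho0, fell by 1.27 ± 0.08 in PKO-1 and fell by 3.71 ± 0.10 in PKO-6 (log2 scale, estimate ± SE). *Mras* fell by 1.04 ± 0.07 in rho0, fell by 1.66 ± 0.07 in PKO-1 and fell by 1.36 ± 0.07 in PKO-6. The kinase *Rock2* rose by 0.77 ± 0.08 in rho0, rose by 0.69 ± 0.08 in PKO-1 and rose by 0.67 ± 0.08 in PKO-6, and *Rock1* rose by 0.58 ± 0.09 in PKO-1 (not called: 0.27 ± 0.09 in rho0 and 0.20 ± 0.09 in PKO-6). The exchange factor *Arhgef11*, a partner of class B plexins, rose by 0.68 ± 0.05 in rho0 and rose by 0.77 ± 0.05 in PKO-6 (not called: -0.20 ± 0.05 in PKO-1). *Rnd1* rose by 0.83 ± 0.06 in PKO-6 (not called: 0.21 ± 0.06 in rho0 and -0.05 ± 0.06 in PKO-1).

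Of 11 tested collapsin response and redox effectors, 8 were called in rho0 (4 higher, 4 lower; 72.7% beside 42.1% of all tested genes), 5 were called in PKO-1 (2 higher, 3 lower; 45.5% beside 34.3% of all tested genes) and 8 were called in PKO-6 (4 higher, 4 lower; 72.7% beside 41.3% of all tested genes). Their medians were -0.09, 0.09 and 0.17. *Dpysl3*, a collapsin response mediator, rose by 1.86 ± 0.06 in rho0, rose by 1.25 ± 0.06 in PKO-1 and rose by 0.84 ± 0.06 in PKO-6. The kinase *Fyn* rose by 1.16 ± 0.05 in rho0 and rose by 1.18 ± 0.05 in PKO-6 (not called: 0.09 ± 0.05 in PKO-1), and the kinase *Fes* rose by 0.95 ± 0.10 in rho0, rose by 0.73 ± 0.11 in PKO-1 and rose by 0.83 ± 0.10 in PKO-6. *Mical1*, an actin-oxidizing enzyme that binds plexins, fell by 1.38 ± 0.12 in rho0, fell by 5.94 ± 0.17 in PKO-1 and fell by 3.79 ± 0.14 in PKO-6. Its relative *Mical2* fell by 0.82 ± 0.06 in rho0, fell by 0.87 ± 0.06 in PKO-1 and fell by 1.08 ± 0.06 in PKO-6.

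Among 8 tested co-receptors and adhesion partners, 3 were called in rho0 (3 higher, 0 lower; 37.5% beside 42.1% of all tested genes), 3 were called in PKO-1 (2 higher, 1 lower; 37.5% beside 34.3% of all tested genes) and 7 were called in PKO-6 (4 higher, 3 lower; 87.5% beside 41.3% of all tested genes). Their medians were 0.09, 0.05 and 0.20. *Nrcam* rose by 3.81 ± 0.19 in rho0, rose by 5.87 ± 0.18 in PKO-1 and rose by 5.40 ± 0.18 in PKO-6. *L1cam*, an adhesion molecule that binds *Nrp1*, rose by 0.80 ± 0.10 in rho0, fell by 3.98 ± 0.14 in PKO-1 and rose by 0.53 ± 0.10 in PKO-6, so the clones went in opposite directions. *Cd44* rose by 1.15 ± 0.07 in PKO-1 and rose by 0.64 ± 0.07 in PKO-6 (not called: 0.21 ± 0.06 in rho0). *Itga1* rose by 0.65 ± 0.09 in rho0 and rose by 1.05 ± 0.09 in PKO-6 (not called: 0.21 ± 0.09 in PKO-1). *Ptk7* fell by 0.91 ± 0.09 in PKO-6 (not called: -0.03 ± 0.09 in rho0 and -0.42 ± 0.09 in PKO-1), and *Erbb2* fell by 0.88 ± 0.08 in PKO-6 (not called: -0.45 ± 0.08 in rho0 and -0.19 ± 0.07 in PKO-1). Among 3 tested convertases that can cleave semaphorins, 3 were called in rho0 (1 higher, 2 lower; 42.1% of all tested genes were called), 2 were called in PKO-1 (0 higher, 2 lower; 34.3% of all tested genes were called) and 2 were called in PKO-6 (0 higher, 2 lower; 41.3% of all tested genes were called). *Pcsk6* rose by 0.53 ± 0.11 in rho0, fell by 1.69 ± 0.12 in PKO-1 and fell by 5.34 ± 0.16 in PKO-6. *Pcsk7* fell by 0.65 ± 0.06 in rho0, fell by 0.64 ± 0.06 in PKO-1 and fell by 0.66 ± 0.06 in PKO-6, and *Furin* fell by 0.69 ± 0.09 in rho0 (not called: -0.28 ± 0.09 in PKO-1 and -0.42 ± 0.09 in PKO-6).

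Neuropilins also bind vascular growth factors. Of 8 tested ligands and receptors of that pathway, 6 were called in rho0 (3 higher, 3 lower; 75% beside 42.1% of all tested genes), 6 were called in PKO-1 (3 higher, 3 lower; 75% beside 34.3% of all tested genes) and 7 were called in PKO-6 (5 higher, 2 lower; 87.5% beside 41.3% of all tested genes). Their medians were -0.15, -0.07 and 0.93. *Figf*, a ligand that binds *Nrp2* and *Flt4*, fell by 3.88 ± 0.11 in rho0, fell by 1.78 ± 0.09 in PKO-1 and fell by 4.72 ± 0.11 in PKO-6. *Vegfc* fell by 0.89 ± 0.13 in PKO-6 (not called: -0.45 ± 0.13 in rho0 and -0.25 ± 0.13 in PKO-1). *Vegfa* rose by 1.73 ± 0.08 in rho0, rose by 0.86 ± 0.08 in PKO-1 and rose by 1.76 ± 0.08 in PKO-6, and *Pgf* rose by 2.22 ± 0.11 in PKO-1 and rose by 2.03 ± 0.11 in PKO-6 (not called: 0.15 ± 0.12 in rho0). The receptor *Flt1* rose by 1.01 ± 0.08 in rho0 and rose by 1.41 ± 0.08 in PKO-1 (not called: 0.18 ± 0.08 in PKO-6). *Flt4* fell by 2.80 ± 0.14 in rho0, fell by 1.14 ± 0.11 in PKO-1 and rose by 4.20 ± 0.09 in PKO-6. The 6 endothelial markers summed to 11.5 to 24.9 normalized counts per TM6 library, 16.7 to 29.9 in rho0, 125 to 139 in PKO-1 and 147 to 237 in PKO-6. In the knockout clones this was mostly *Vwf*. *Pecam1* and *Cdh5* had higher means there than in TM6, while *Tek* averaged 10.5 in TM6, 6.85 in PKO-1 and 14.9 in PKO-6. *Emcn* was at 0 and *Cldn5* at 2 counts or fewer in every library, and the part of such cells in these values was not tested.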

How the data were processed

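The deposited gene table held an estimated count for each of 24453 genes. The authors obtained it with RSEM 1.2.25 after alignment to a mouse transcriptome built from mm10, with technical duplicates merged. TPM, scaled by the authors for effective length and depth, came from the deposited transcript files and were summed per gene. Counts were rounded, filtered (filterByExpr, minimum count 10), scaled by TMM and tested by quasi-likelihood in edgeR 4.0.16 (R 4.3.3), with 1 coefficient per line, or with both clones as 1 group for the pooled comparisons. *P* values were adjusted by Benjamini-Hochberg over 14026 genes. SE was the log2 fold change over the square root of F. The common biological coefficient of variation was 0.0837 over 4 lines and 0.248 over 3 groups. Alternatives included DESeq2 1.42.0. Values per library are given for genes called in at least 1 of 6 comparisons whose mean reached 100 normalized counts in at least 1 line, and for both neuropilins. Members and lists were chosen with earlier results of these data known. A marker gene and a gene of the GTPase signalling list are not reported here.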

Additional observations from a re-analysis of the deposited data

Results flagged for a closer look

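The effect of a line against TM6 differed between the knockout clones for 14 of the 27 tested genes, beside 29.1% of all tested genes, tested directly as PKO-1 against PKO-6 by edgeR. On the log2 scale, the difference was 2.07 for *Nrp1*, 0.97 for *Nrp2*, 1.19 for *Plxna2*, 1.09 for *Sema3a*, 1.37 for *Sema3c* and 0.73 for *Sema4a*, all higher in PKO-1. It was -5.51 for *Sema4f*, -4.34 for *Plxnb1*, -1.81 for *Plxnc1*, -1.42 for *Sema6c*, -1.13 for *Plxnd1*, -0.77 for *Sema6b* and -0.52 for *Sema3g*, all higher in PKO-6. *Sema6d*, also called higher in PKO-6, passed the filter on low counts through the knockout libraries, so its fitted difference of -2.23 describes low counts and is no support. The calls of *Sema3g*, *Sema4a* and *Plxnc1* were lost when 1 library was left out. With 1 clone behind each value, clonal variation and knockout cannot be told apart.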

How the results depend on the processing

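Of the 95 called pairs of gene and comparison, 72 kept the call in each of the other settings run, the fold threshold of 1 aside, and 13 lost it in at least 1 fit without a library. With a fold threshold of 1, the family's calls numbered 12 in rho0 against TM6, 13 in PKO-6 against TM6 and 4 in pooled PKO against rho0, and those over all genes 2944 in rho0, 2274 in PKO-1, 3038 in PKO-6, 1950 between the clones, 1788 in pooled PKO against TM6 and 667 against rho0. By adjusted *P* alone, all genes called numbered 7611 in PKO-1, 7014 between the clones and 2377 in pooled PKO against rho0. With the other handling of the clones, the family's calls were 10 in rho0 against TM6 and 16 in pooled PKO against rho0. All genes called numbered 4111 and 3330 in that order. With chromosome medians removed, pooled PKO against rho0 had 5 calls in the family and 1304 over all genes, beside 8 and 1500 with the medians kept. Without 1 library it had 4 (rho0 replicate 1) to 8, and 841 (rho0 replicate 3) to 1692 (PKO-6 replicate 3) over all genes.

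With chromosome medians removed the sign turned for *Plxna3* in PKO-6 (0.28) and in pooled PKO (0.064) against TM6, for *Sema5a* in rho0 (0.054) and for *Sema4d* between the clones (0.068). Other values that were not called either way changed sign as well, for *Sema6b* in rho0 (-0.24), *Nrp1* in PKO-1 (0.09), *Sema7a* between the clones (0.22) and *Sema4c* in pooled PKO against TM6 (-0.19). The cause was not tested. With the replicate block, 5 genes of the family were called in pooled PKO against rho0, and 1097 over all genes, beside 8 and 1500 without the block. The labels do not say that replicate numbers pair the samples. Deviations from the line means in libraries with the same number had correlations of -0.39 to 0.25, above 0.1 in 10 of 18 pairs, and 5 of 12 libraries were closest to their own number. Counts at or below 3 per library set the limit for *Sema5b*, *Plxna4* and *Sema6d* in rho0. A single rho0 colony and 1 clone each of PKO-1 and PKO-6 limit what the lines stand for.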
